A study of Mus musculus with 6 samples.

Results

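MiR-21a is a mouse miRNA hairpin whose 2 mature products, mmu-miR-21a-5p and mmu-miR-21a-3p, are the 2 miRNAs described here out of 1546 mature miRNAs listed for the livers. Both were taken by name from the deposited values, and both had at least 1 read in each of the 6 libraries. The livers came from male C57BL/6 mice, 3 fed a normal diet (NC) and 3 fed a high-fat diet and called MAFLD (metabolic dysfunction-associated fatty liver disease). Per the study's methods the diets started at 8 weeks of age and lasted 16 weeks, with 6 mice per diet, of which 3 per diet have a library here. No allele or drug was added in either group, and the diet is the model. The RNA came from pieces of whole liver, so fewer cells of a type and less RNA per cell cannot be told apart.

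A miRNA hairpin is cut by Drosha in the nucleus and by Dicer in the cytoplasm into a short duplex. As a rule 1 strand of the duplex, the guide, is loaded into an Argonaute protein and pairs through its seed with messenger RNAs, and the other, the passenger, is degraded. For miR-21 the guide is the 5p strand. It is known to repress Pdcd4, it is made in hepatocytes, in inflammatory cells and in activated stellate cells, the cells that lay down scar in the liver, and it is among the miRNAs most studied in fatty liver and in fibrosis. The comparison asks whether the level of the guide, its place among the liver miRNAs or the balance of its 2 arms differed between the diets.

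The mature sequences below are shown because the near copies of miR-21a-5p bear on which reads carry its name. The capitals mark the seed, bases 2 to 8 from the 5′ end, and the sequences are those of RefSeq for GRCm38.p6.
miR-21a-5p: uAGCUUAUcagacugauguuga
miR-21a-3p: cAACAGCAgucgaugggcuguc
miR-21b: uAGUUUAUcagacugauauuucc
miR-21c: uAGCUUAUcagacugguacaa
Among the 1312 listed miRNAs with a RefSeq sequence, only miR-21c shared the seed of miR-21a-5p, and no other shared the seed of miR-21a-3p. Counted from 1 at the 5′ end of miR-21a-5p, miR-21c differs by A16G, G18A, U19C, U20A and G21A, so its first 15 bases are those of miR-21a-5p. MiR-21b differs by C4U, inside the seed, and by G18A, G21U and A22C. Only shared positions were compared, and the lengths also differ, with 22 nt for miR-21a-5p, 23 nt for miR-21b and 21 nt for miR-21c.

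In the mouse reference GRCm38 the Mir21a hairpin (ENSMUSG00000065455.1) of 92 nt lies on the minus strand at chr11:86584067-86584158. It falls inside exon 12, the last exon, of Vmp1 (ENSMUSG00000018171.9) on the same strand, in the 3′ untranslated region. Vmp1 encodes a membrane protein of autophagy. MiR-21a-5p covers bases 18 to 39 of the hairpin and miR-21a-3p bases 56 to 77. Mir21b is at chr3:29636744-29636851 within an intron of Egfem1, and Mir21c is at chr8:128278148-128278225, where GENCODE M21 lists no other gene.

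The libraries held between 1336935 and 4685712 reads on listed miRNAs, and the unit is CPM, reads per 1000000 of these. The share of miR-148a-3p, a miRNA of hepatocytes that took 48.5% to 71.4% of the reads in NC livers and 46.8% to 56.7% in MAFLD livers, sets how much of the total is left for every other miRNA. MiR-122-5p, the defining miRNA of hepatocytes, took 4.22% to 8.51% of the reads over the 6 libraries. The brain miRNAs miR-9-5p, miR-9-3p, miR-124-3p and miR-128-3p summed to 463 and 744 CPM in NC replicates 1 and 2, against 44.2 to 63.9 CPM in the other 4 libraries, and miR-124-3p was at 0 in NC replicate 3 and in MAFLD replicates 1 and 2. The part of these reads in the results below was not tested.

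MiR-21a-5p (mmu-miR-21a-5p) was among the first 4 miRNAs by abundance in all 6 livers, and its CPM did not separate the diets. It stood at 46038, 75409 and 96189 CPM in the NC livers, which is 4.60%, 7.54% and 9.62% of all miRNA reads. In the MAFLD livers it stood at 68324, 50483 and 53666 CPM, or 6.83%, 5.05% and 5.37%. The lowest and the highest of the 6 values were both NC livers, so the groups overlapped, and the highest NC value was 2.09 times the lowest. Between 82354 and 236548 reads lay behind each value, so counting error was small, as in MAFLD replicate 3 with a 95% Wilson interval of 53310 to 54024 CPM. NC livers averaged 72545 ± 25198 CPM (SD, n = 3) and MAFLD livers 57491 ± 9516 CPM (SD, n = 3).

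Differences between the diets were tested with limma on log2(CPM + 1). This covered 501 miRNAs averaging 1 CPM or more, with Benjamini-Hochberg adjustment over all of them. For miR-21a-5p the log2 fold change was −0.28 (standard error 0.28, 95% interval −0.87 to 0.31), with an adjusted p of 0.581 from limma. The interval spans 0.546 to 1.24 times the NC level, so the 6 livers leave room for a lower level and for a slightly higher one. The exact permutation test gave p = 0.5, two-sided, where 0.1 is the smallest that 3 livers against 3 allow. Of all 501 miRNAs tested 1 (0.2%) passed an adjusted p of 0.05. Leaving out NC replicate 3 brought the log2 fold change of miR-21a-5p to −0.05, and leaving out NC replicate 1 brought it to −0.58.

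**Figure D1:**
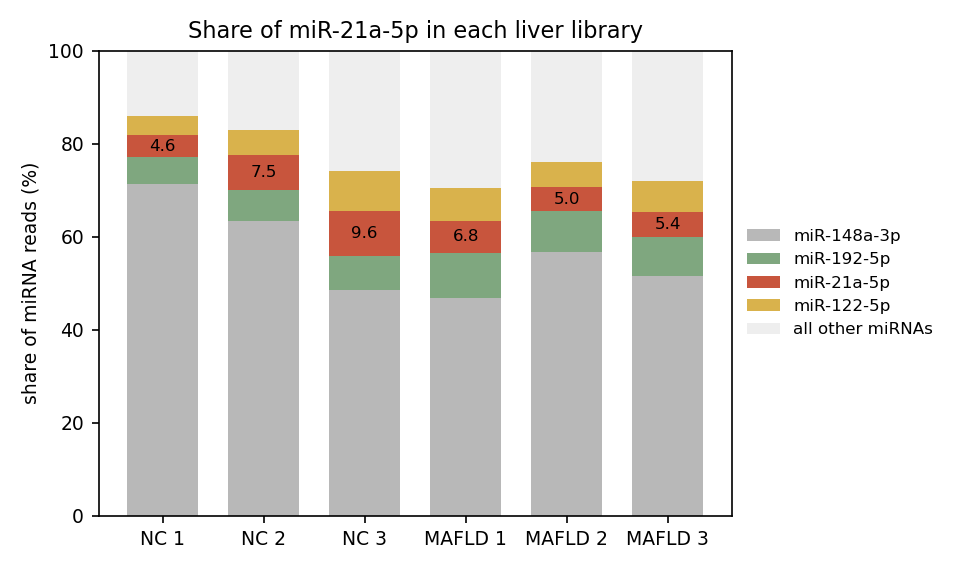
Stacked bars of the share of miRNA reads (%, vertical axis) in each of the 6 liver libraries, for miR-148a-3p, miR-192-5p, miR-21a-5p, miR-122-5p and all other miRNAs. The numbers in the bars are the share of miR-21a-5p, from 4.60% to 9.62% in NC and from 5.05% to 6.83% in MAFLD livers, and the bar of miR-148a-3p is tallest in NC replicate 1.

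The rank of a miRNA within its own library does not depend on the library's scaling. MiR-21a-5p ranked 3, 2 and 2 in the NC livers and 4, 4 and 4 in the MAFLD livers, where 1 is the most abundant miRNA. Every MAFLD liver thus ranked it below every NC liver (two-sided exact permutation test, p = 0.1, the smallest possible). The share of all miRNAs whose ranks do not overlap was not counted, so how common such a separation is cannot be said. In CPM, a different measure, the groups did not overlap for 19.4% of all miRNAs, and 4.19% were lower without overlap, among them neither arm of miR-21a. In NC livers only miR-148a-3p was above it by mean CPM, and the next below, miR-192-5p, at 66501 ± 8106 CPM (SD, n = 3), was within the spread of miR-21a-5p. In MAFLD livers miR-122-5p was next above, at 64494 ± 8170 CPM (SD, n = 3), which also lies within the spread of miR-21a-5p. The next below there, miR-30a-5p, at 33817 ± 3518 CPM (SD, n = 3), did not overlap with it. In the MAFLD livers miR-148a-3p, miR-192-5p and miR-122-5p were each above miR-21a-5p in all 3 libraries. MiR-192-5p itself was at 58194 to 74390 CPM in NC and 82161 to 97878 CPM in MAFLD livers. It was thus higher without overlap, as were 15.2% of all miRNAs. MiR-122-5p, at 42159 to 85150 and 55196 to 70527 CPM, overlapped. The rank thus holds the levels of these neighbours as well as that of miR-21a-5p.

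Set against the reads that were not miR-148a-3p, miR-21a-5p was lower in each MAFLD liver than in each NC liver. It made up 16.1%, 20.6% and 18.7% of these reads in NC livers and 12.8%, 11.7% and 11.1% in MAFLD livers. On this scale the groups did not overlap, and the highest value was 1.28 times the lowest in NC and 1.16 times in MAFLD livers, a smaller spread than in CPM. In log2 the difference was −0.63 (standard error 0.14, 95% interval −0.92 to −0.34), and the adjusted p of 0.058 from limma missed the threshold, which 0.4% of the miRNAs passed on this scale. By p-value it stood in position 3 of 500 miRNAs. Of these 500, 38 (7.6%) were lower and 14% were higher in every MAFLD than in every NC liver.

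Median-ratio scaling sets the libraries to a common level by the typical miRNA among the 409 read in all of them, and it also separated the diets. The scaled levels of miR-21a-5p were 72782, 97196 and 76725 in NC and 52951, 52378 and 41063 in MAFLD livers, and the groups did not overlap. The difference of −0.75 in log2 (standard error 0.19) had an adjusted p of 0.0749 from limma, where 0.399% of miRNAs passed 0.05. On this scale 46 of 501 miRNAs (9.18%) were lower without overlap. With the recovered reads edgeR's quasi-likelihood test gave −0.74 with an adjusted p of 0.0665, while 9.98% of miRNAs were lower at an unadjusted p under 0.05. DESeq2 gave −0.77 with an adjusted p of 0.0168, which was past 0.05. DESeq2 called 28 of the 460 miRNAs it gave an adjusted p (6.09%), 21 of them lower in MAFLD livers (4.57%), and 10.8% of all miRNAs were lower at its unadjusted p under 0.05. The fold of miR-21a-5p thus went from 0.821 in CPM to 0.594 with median-ratio scaling, while over all miRNAs the median difference in log2 moved from 0.43 in CPM to 0.044 with median-ratio scaling.

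**Figure D2:**
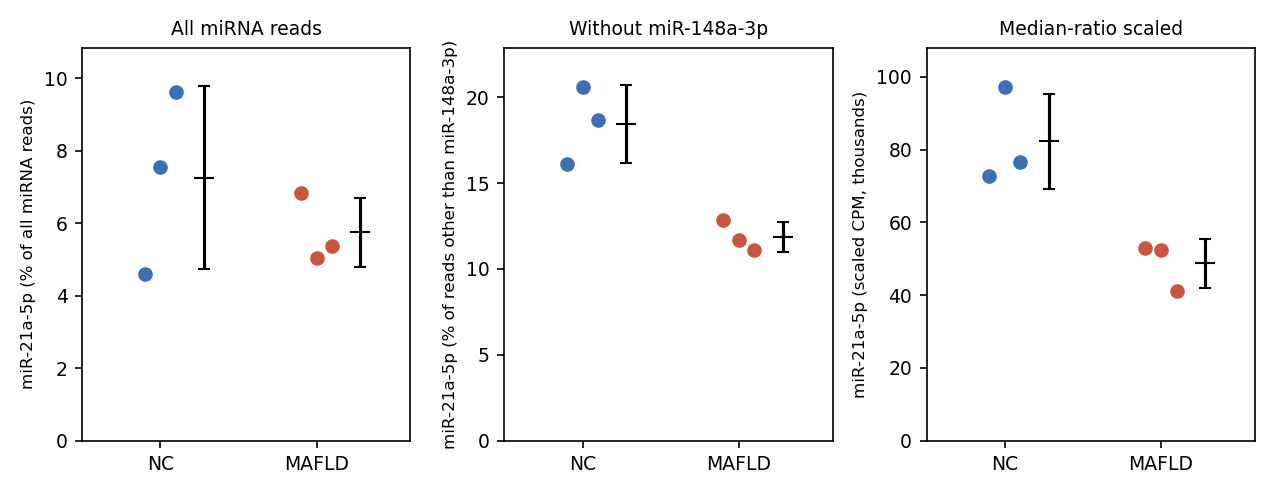
MiR-21a-5p in NC (blue) and MAFLD (red) livers as a share of all miRNA reads (%), as a share of the reads other than miR-148a-3p (%) and as median-ratio scaled CPM (in units of 1000). Points are libraries and the bars beside them are the mean ± SD (n = 3), and the groups overlap in the first panel and not in the other 2.

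The ratio of miR-21a-5p to another miRNA of the same library is also free of the total, and it was taken to 5 references. Relative to let-7a-5p, an abundant and widely made miRNA, miR-21a-5p was 29.2, 39.0 and 41.8 times as high in NC livers and 14.7, 14.7 and 15.6 times in MAFLD livers. This log2 ratio differed by −1.27, and the 3 MAFLD livers lay close together and apart from all NC livers. Relative to miR-16-5p, which often serves as a reference in PCR, the ratios were 140.1, 224 and 187 in NC and 65.4, 67.9 and 61.6 in MAFLD livers, a difference of −1.47 in log2. Relative to miR-22-3p, a broadly expressed miRNA, the ratios were 72.8, 121 and 77.3 against 45.2, 51.8 and 45.8, a log2 difference of −0.89. In CPM let-7a-5p itself was at 1579 to 2304 in NC and at 3430 to 4661 in MAFLD livers. MiR-16-5p was at 329 to 515 in NC and 744 to 1044 in MAFLD livers, and miR-22-3p at 622 to 1245 and 974 to 1512. These ratios thus hold the differences of the references as well as that of miR-21a-5p.

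Relative to miR-122-5p the separation was smaller but without overlap. MiR-21a-5p was at 1.09, 1.39 and 1.13 times miR-122-5p in NC livers and at 0.969, 0.915 and 0.792 times in MAFLD livers, a log2 difference of −0.43. It was thus above miR-122-5p in each NC liver and below it in each MAFLD liver. Relative to miR-148a-3p the groups overlapped, with 6.45%, 11.9% and 19.8% against 14.6%, 8.90% and 10.4% and a log2 difference of −0.057. Each of the 4 ratios without overlap had an exact permutation p of 0.1, the smallest possible, and 0.125 after Benjamini-Hochberg adjustment over the 5 references, and the ratio to miR-148a-3p had p = 1. The ratios share miR-21a-5p and are not independent. Over all 500 other tested miRNAs, 179 (35.8%) were higher relative to miR-21a-5p in every MAFLD liver than in every NC liver, and 12 were lower.

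**Figure D3:**
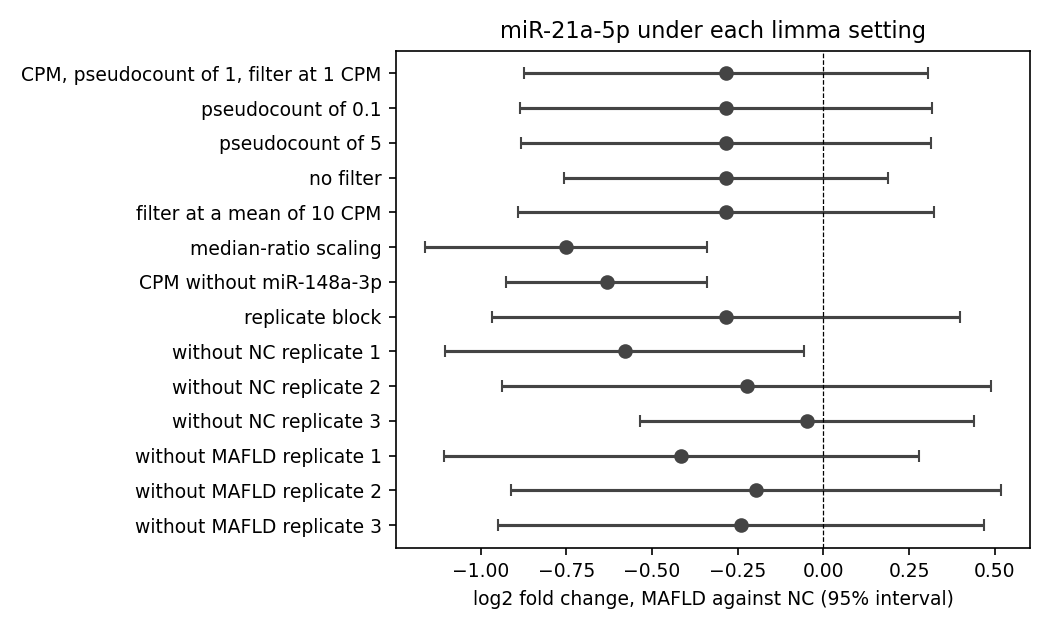
Log2 fold change of miR-21a-5p in MAFLD against NC livers (horizontal axis) with its 95% interval from limma, for the analysis in CPM and the 13 limma settings that change 1 choice at a time. All points shown lie below 0, from −0.75 with median-ratio scaling to −0.05 without NC replicate 3, and the intervals end below 0 for median-ratio scaling, CPM without miR-148a-3p and the fit without NC replicate 1.

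MiR-21a-3p (mmu-miR-21a-3p), the passenger strand, was scarce in all livers and did not separate the diets. It was read 4, 9 and 18 times in the NC libraries, which is 1.57, 5.73 and 13.5 CPM. In the MAFLD libraries it was read 13, 23 and 18 times, which is 4.88, 4.91 and 11.7 CPM. Both the lowest and the highest value were NC livers. The 95% Wilson interval of NC replicate 1 ran from 0.610 to 4.03 CPM and that of NC replicate 3 from 8.52 to 21.3 CPM, so these 2 NC livers differed by more than counting error. The intervals cover counting error only. NC livers averaged 6.92 ± 6.04 CPM (SD, n = 3) and MAFLD livers 7.17 ± 3.95 CPM (SD, n = 3).

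The log2 fold change of miR-21a-3p was 0.27 (standard error 0.64, 95% interval −1.09 to 1.63), with an adjusted p of 0.843 from limma, and the exact permutation test gave p = 1. The interval spans 0.471 to 3.10 times the NC level, so at this depth and spread the livers leave room for a lower level and for a higher one. The direction turned with the scaling, to −0.080 with median-ratio scaling, −0.22 with edgeR and −0.24 with DESeq2, and to −0.37 without NC replicate 1 and −0.097 without MAFLD replicate 3. It ranked 343, 267 and 218 in NC livers and 277, 257 and 242 in MAFLD livers, and these ranks overlapped (exact permutation p = 0.8). Its neighbours by mean CPM, miR-497a-5p and miR-144-5p in NC and miR-12184-3p and miR-511-3p in MAFLD livers, did not differ from it beyond their spread.

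The arms were further apart than those of any other hairpin compared. For 105 of the 477 hairpins with both arms listed, each arm had a mean of at least 1 CPM, and over the 6 libraries miR-21a had the most one-sided of these, with a mean log2 ratio of 13.1 of 5p to 3p on the scale of CPM + 1. The median hairpin had an arm ratio of 2.74 in absolute log2, and the next after miR-21a were let-7g at 12.1 and miR-192 at 11.8. Hairpins with a passenger below 1 CPM were not compared, so a more one-sided hairpin among them cannot be seen. In these libraries 865338 reads were miR-21a-5p and 85 were miR-21a-3p.

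In the NC livers there were 29344, 13149 and 7144 reads of miR-21a-5p per read of miR-21a-3p, and in the MAFLD livers 14009, 10285 and 4575. MAFLD replicate 3 was lowest and NC replicate 1 highest, and the groups overlapped. The passenger made up 0.341, 0.760 and 1.40 of every 10000 reads of both arms in NC and 0.714, 0.972 and 2.19 in MAFLD livers. The mean log2 ratio was 13.4 ± 0.72 (SD, n = 3) in NC and 12.9 ± 0.75 (SD, n = 3) in MAFLD livers. The difference was −0.56 (standard error 0.50, 95% interval −1.71 to 0.60), with an adjusted p of 0.619 from limma over the 105 hairpins and an exact permutation p of 0.5. No hairpin (0%) passed an adjusted p of 0.05 from limma for its arm ratio, 17 (16.2%) reached both 1.5-fold and an unadjusted p under 0.05, and 21 (20%) did not overlap between the groups. No other tool was run on the arm ratios.

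**Figure D4:**
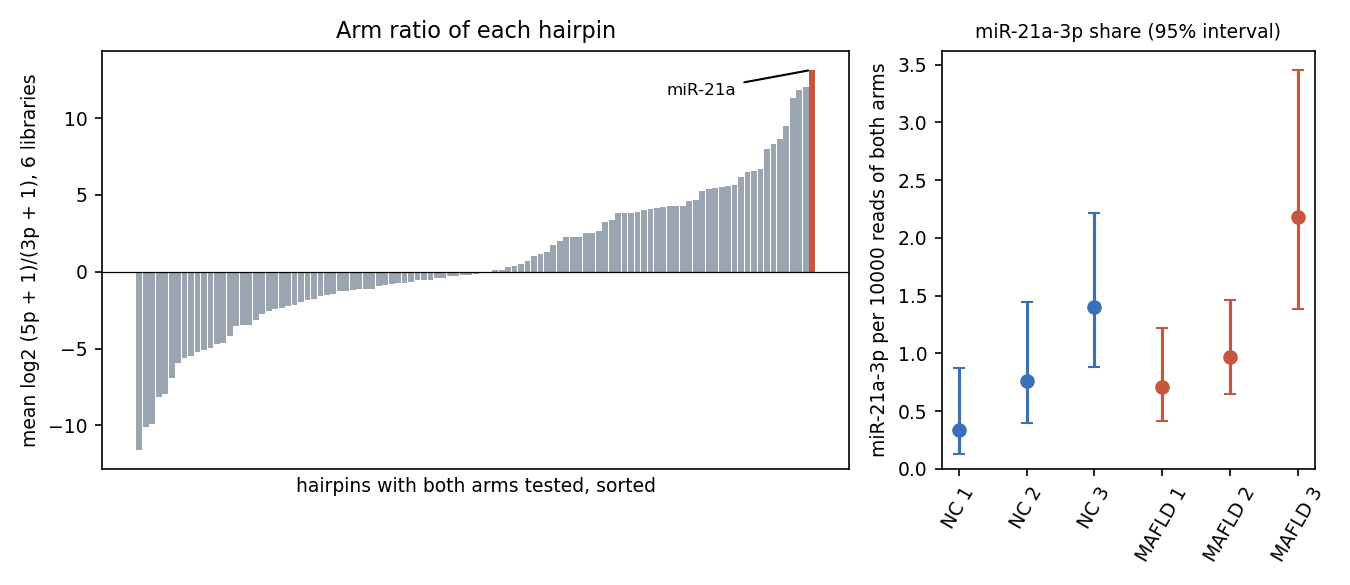
Left, mean log2 ratio of 5p to 3p (CPM + 1) over 6 libraries for 105 hairpins in ascending order, with miR-21a in red at the right end at 13.1. Right, reads of miR-21a-3p per 10000 reads of both arms in each library with the 95% Wilson interval, from 0.341 in NC replicate 1 to 2.19 in MAFLD replicate 3, where NC (blue) and MAFLD (red) overlap.

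The arm ratios of miR-122 and miR-22 are given beside it because both hairpins are well read in liver. For miR-122, whose guide is also the 5p strand, the mean log2 ratio was 8.40 in NC and 7.61 in MAFLD livers. The difference of −0.78 had a p of 0.0465 unadjusted and 0.297 adjusted from limma. This ratio was lower in every MAFLD than in every NC liver, and 20% of the 105 hairpins did not overlap in either direction. For miR-22, whose guide is the 3p strand, the mean log2 ratio was −3.27 and −3.60, and the groups overlapped. The differences between these hairpins and miR-21a were not tested.

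Reads carrying the names of the near copies were scarce, and more of them were found in each MAFLD liver than in each NC liver. MiR-21c was read 12, 9 and 15 times in NC and 66, 57 and 61 times in MAFLD libraries, which is 4.71, 5.73 and 11.2 CPM against 24.8, 12.2 and 39.8 CPM. Each MAFLD liver was above each NC liver, although the Wilson intervals of NC replicate 3 (6.80 to 18.5 CPM) and MAFLD replicate 2 (9.39 to 15.8 CPM) overlapped. For miR-21c limma gave a log2 fold change of 1.63 (standard error 0.54). Its p was 0.0086 unadjusted and 0.196 adjusted by limma. It passed 0.05 in 1 of 15 alternatives, without NC replicate 3, at an adjusted p of 0.0204 from limma, and its adjusted p ran up to 0.592 over these. In the fit without NC replicate 3, 22.8% of all miRNAs passed 0.05, and miR-21c stood in position 68 of 501 by p-value.

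MiR-21b was read 12, 8 and 12 times in NC and 45, 43 and 29 times in MAFLD libraries. This is 4.71, 5.10 and 8.98 CPM against 16.9, 9.18 and 18.9 CPM, so the groups only just did not overlap. The log2 fold change of miR-21b was 1.13 (standard error 0.51), with an adjusted p of 0.251 from limma, and it passed 0.05 in none of 15 alternatives, with adjusted p from 0.0588 to 0.665. Of all 501 miRNAs, 76 (15.2%) were higher without overlap and 67 (13.4%) were higher at an unadjusted p under 0.05 and 1.5-fold. Both near copies were among these.

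The near copies were also set against miR-21a-5p itself. Per 1000000 reads of miR-21a-5p there were 102, 76.0 and 117 reads of miR-21c in NC and 362, 241 and 741 in MAFLD libraries. For miR-21b there were 102, 67.6 and 93.3 against 247, 182 and 352. Neither ratio was constant over the libraries, and for both every MAFLD liver was above every NC liver (two-sided exact permutation test, p = 0.1, the smallest possible). The same held for 179 of 500 miRNAs (35.8%) relative to miR-21a-5p, so it is not particular to the near copies. Over the 6 libraries miR-21b held 149 reads and miR-21c 220, against the 865338 of miR-21a-5p. How the reads were shared between such similar names is not given in the sources used here, so the values of miR-21b and miR-21c are uncertain.

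**Figure D5:**
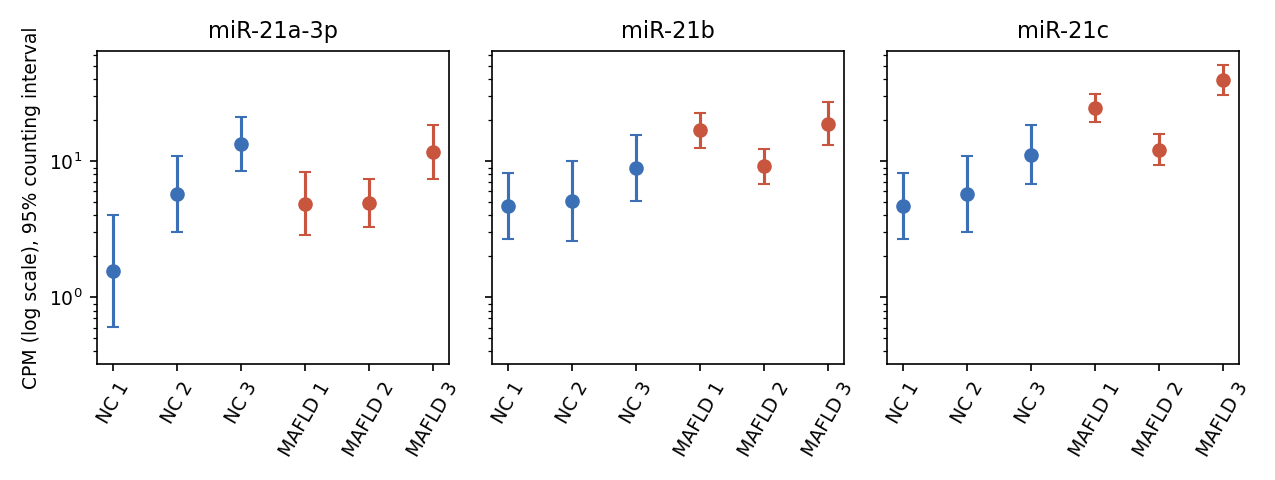
CPM on a log axis of miR-21a-3p, miR-21b and miR-21c in each library with the 95% Wilson interval, NC in blue and MAFLD in red. MiR-21a-3p overlaps between the groups, with 1.57 to 13.5 CPM in NC and 4.88 to 11.7 CPM in MAFLD livers, while all MAFLD points of miR-21b and miR-21c lie above all NC points.

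The miRNAs with the most similar profile were found by the root-mean-square difference of centred log2(CPM + 1) values over the 6 libraries. For miR-21a-5p the nearest was miR-34c-5p, at 0.0999, followed by miR-222-3p, miR-329-3p, miR-30b-3p and miR-152-5p, at 0.204 to 0.222, where the median of all miRNAs was 0.644. For miR-21a-3p they were miR-375-3p, miR-1902, miR-3473f, miR-145a-5p and miR-499-3p, at 0.172 to 0.350, against a median of 0.779. No miRNA was among the nearest 5 of both arms. All but miR-145a-5p had a mean of at most 24.7 CPM over the libraries, and the points share library depth.

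Other miRNAs linked to the processes of miR-21 were counted from lists. Of 12 miRNAs linked to fibrosis 5 were higher in MAFLD livers at an unadjusted p under 0.05 and 1.5-fold and none was lower, beside 13.4% and 4.59% of all miRNAs. These were miR-34a-5p, a miRNA induced by p53 with a log2 fold change of 1.43, miR-214-3p and miR-199a-3p, both miRNAs of stellate and mesenchymal cells, miR-29a-3p, which represses collagens, and miR-378a-3p, from an intron of Ppargc1b. The median log2 fold change of this list was 0.84, where that of all miRNAs was 0.43.

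Of 10 miRNAs linked to inflammation 1 was higher by the same rule, and none was lower. This was miR-155-5p, a miRNA of activated immune cells, at 7.93 ± 6.94 CPM (SD, n = 3) in NC and 22.9 ± 15.1 CPM (SD, n = 3) in MAFLD livers, and the groups overlapped. The median log2 fold change of this list was 0.51. With all 6 libraries no member of these 2 lists passed an adjusted p of 0.05 from limma. Without NC replicate 3 the numbers higher by this rule were 9 for fibrosis and 3 for inflammation, where 29.1% of all miRNAs were. In that fit 10 of 12 and 2 of 10 passed an adjusted p of 0.05 from limma, beside 22.8% of all miRNAs. Over all alternatives the numbers higher ran from 1 to 9 and from 0 to 3. For fibrosis it was 2 with median-ratio scaling, 1 with edgeR and 1 with DESeq2, at list medians of 0.38, 0.37 and 0.36. The medians of all miRNAs there were 0.044, 0.034 and −0.0049. With DESeq2 miR-34a-5p passed 0.05 (log2 fold change 0.99, adjusted p = 0.0177), and by the unadjusted rule miR-222-3p, on the fibrosis list, was lower. MiR-21a-5p, with −0.28, was below the median of both lists.

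The miRNAs of other liver cells are given beside miR-21a-5p, since several cell types make it. The 6 miRNAs of myeloid and lymphoid cells summed to 1616 to 3061 CPM in NC and 2223 to 3314 CPM in MAFLD livers, and 1 of them, miR-155-5p, was higher at the unadjusted threshold, which 13.4% of all miRNAs passed as higher and 4.59% as lower. The 5 of stellate and mesenchymal cells summed to 12612 to 30033 CPM in NC and 19775 to 26950 CPM in MAFLD livers, with 2 higher. The 6 hepatocyte miRNAs summed to 658336 to 819798 and 651665 to 722194 CPM, with 2 higher. The 2 endothelial miRNAs, both arms of miR-126a, summed to 4710 to 6587 CPM in NC and 7659 to 10155 CPM in MAFLD livers, and both were higher at the unadjusted threshold. This sum and miR-126a-3p did not overlap between the diets, and miR-126a-5p did. Of these 4 sums only the endothelial one separated the diets in CPM, and none did without miR-148a-3p or with median-ratio scaling, the scales on which miR-21a-5p separated them. Each sum is mostly 1 miRNA, so it says little of its other members. These are miR-146a-5p (mean 2213 CPM in NC and 2339 in MAFLD livers), miR-143-3p (21193 and 20848), miR-148a-3p and miR-126a-3p. On the scale without miR-148a-3p the hepatocyte sum lacks that miRNA. On the median-ratio scale miR-126a-3p differed by 0.22 in log2 (adjusted p = 0.621 from limma). The part of any of these cells in the level of miR-21a-5p was not tested. The 5 miRNAs of bile duct epithelium, the 4 of red blood cells, the 3 of muscle and the 2 of pancreas that were tested had none higher or lower by this rule, and 2 of the 4 brain miRNAs, miR-9-5p and miR-124-3p, were lower.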

How the data were processed

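Small RNA was sequenced from 6 samples labelled as mouse liver, 1 library each (the culture protocols among the labels describe HepG2, a human liver cancer line, which no sample is labelled as), after treatment of the RNA to remove modifications that hinder adapter ligation or reverse transcription. The authors deposited CPM values, reads per 1000000 on all listed miRNAs, and the submitters' processing notes name FastQC, cutadapt, Bowtie, edgeR and GRCm38, without versions or roles. All values (100%) were whole multiples, within 0.02, of the smallest value of their library, which recovered the reads. Adapter ligation favours some sequences, so levels of different miRNAs are compared as reads only.

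The diets were compared by limma 3.58.1 (R 4.3.3, trend, log2(CPM + 1), mean of at least 1 CPM), with arm ratios fitted over hairpins, and by exact permutation tests in Python 3.11.15. Counting intervals are 95% Wilson intervals from scipy 1.17.1. Other settings were a pseudocount of 0.1 or 5, a filter at 10 CPM or none, median-ratio scaling, CPM without miR-148a-3p, edgeR 4.0.16, DESeq2 1.42.0, the replicate block and each library left out. The methods were tested on simulated data. The result of 1 further list is not reported here. The members, lists and tests were chosen with earlier results of these data known. Named miRNAs are the members, their near copies, the 5 references, neighbours in rank and arm ratio, the 5 most similar profiles, and list members at an unadjusted p under 0.05 and 1.5-fold. Nothing says whether the mice shared a cage or litter, and the tests take each liver as independent. Positions come from GENCODE M21 and RefSeq, both of GRCm38.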

Additional observations from a re-analysis of the deposited data

How the results depend on the processing

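All 27 alternatives put miR-21a-5p lower in MAFLD livers, by log2 values between −0.82 and −0.05, and its adjusted p lay between 0.0168 and 0.9. It passed 0.05 in 3, and DESeq2 (−0.77) was 1 of them. The others were added after the values were seen. They were CPM without miR-148a-3p with NC replicate 1 (−0.73) or NC replicate 3 (−0.62) also left out. By p-value miR-21a-5p stood in position 4 of 500 miRNAs in the former and in position 28 of 500 in the latter. At least 28 miRNAs thus passed 0.05 in the latter, so that call is not particular to miR-21a-5p. The share of all miRNAs that passed was not counted for either. The cause of the lower values was not tested. The sign of miR-21a-3p turned with median-ratio scaling (−0.080), edgeR (−0.22) and DESeq2 (−0.24). Leaving out each library gave −0.37 to 0.87. It never passed 0.05. Neither it nor the arm ratio could be fitted at 10 CPM. The arm ratio ran from −0.92 to −0.14 without 1 library. The difference in rank ran from 1.5 to 2 for miR-21a-5p and from −46.3 to 16.2 for miR-21a-3p, and the log2 ratio to miR-148a-3p from −0.47 to 0.34. The ratios to the other 4 references kept their sign in all alternatives.

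The number of miRNAs past an adjusted p of 0.05 was 1 and became 11 without the filter, 2 with median-ratio scaling, 2 without miR-148a-3p, 28 with DESeq2 and 5 with the replicate block, and lay between 0 and 114 with a library left out. It was 114 without NC replicate 3 and 3 without MAFLD replicate 3. The limma fits that gave 0 left out NC replicate 1, NC replicate 2, MAFLD replicate 1 or MAFLD replicate 2 and had 56, 40, 41 and 89 at an unadjusted p under 0.05. Over 501 miRNAs, livers with the same number in both diets did not deviate together (correlations of 0.012, −0.020 and −0.046). This cannot settle whether the numbers pair them. The arm ratio of miR-21a was highest in replicate 1 and lowest in replicate 3 in both diets. With the replicate block miR-21a-5p had an adjusted p of 0.651, miR-21a-3p of 0.808 and the arm ratio of 0.183 (−0.56), and the block changed no call of these. For the arm ratio the block took the standard error from 0.50 to 0.135. Its unadjusted p from limma went from 0.298 to 0.0070. Reads of miR-21a-3p, 4 to 23 per library, limit its fold and the arm ratio.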
